A study of Mus musculus with 9 samples.

Results

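Lipid-associated macrophage markers were followed in mouse liver RNA as a list of 9 genes, Trem2, Gpnmb, Cd9, Cd63, Spp1, Lpl, Mmp12, Itgax and Atp6v0d2, named as markers of that state. Each gene was read from the brightest of its probe sets that carry a single gene symbol, where a probe set is a group of array probes summarised as 1 value. That gave values for 8 of the 9 genes among 22180 genes tested, and Spp1, the osteopontin gene, was not analysed here. The livers came from C57BL/6 mice, written C56BL/6J in the strain entry, that were 5 weeks old at the start, and sex was not given in the sources used here. A regular diet (RD) was fed to the control group, a high-fat diet (HFD) to another, and a high-fat diet with oral ginseng flower bud extract at 500 mg/kg (GFB) to the last. Dosing was daily for 12 weeks, with vehicle in place of extract in the mice not given it, and all 3 groups were fasted overnight before the liver was taken. Each group had 3 whole-transcript arrays. Whether every array came from its own mouse is not stated, so the p-values here speak only to variation among these samples, which may be technical, and 3 arrays a group limit the precision.

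Lipid-associated macrophages are macrophages that gather in fat-laden tissue, take up lipid and cell debris and break it down in lysosomes. In fatty liver such cells are known to arise largely from recruited monocytes and to sit near fibrotic and lipid-rich areas, beside the resident Kupffer cells. TREM2 is the receptor by which they sense lipids and lipoproteins, and it signals through the adaptor TYROBP (DAP12). The other markers are proteins of the cell surface, of the lysosome and of secretion that this state shares. Several are not restricted to macrophages: Cd9 and Cd63 are made by many cell types, and Lpl by fat and muscle cells. Whole liver RNA was measured, so fewer cells of a type and less RNA per cell cannot be told apart.

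Of the 8 measured markers, 1 passed the test in any comparison. Cd9 fell on the high-fat diet and stayed low with extract. Trem2 stood within 0.13 log2 units of itself in every pair of groups and did not pass. Gpnmb, Mmp12 and Itgax were dim and had their highest group means on the high-fat diet alone. Atp6v0d2 was dim on the regular diet and had its highest values with extract, and none of these 4 passed in any comparison. Background was judged from 1429 odour, pheromone and bitter taste receptor genes, which a liver is not known to use: in each array, their 95th percentile (4.33 to 4.50 on the log2 scale) was taken as its level, with 4.40 as the mean of the 9 arrays. Trem2, Cd9, Cd63 and Lpl were above that level in all 9 arrays, and the other 4 were not. Signals of different probe sets are not compared as levels, since probes differ in brightness.

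Upstream sequences are shown for Cd9, which changed, and for the 3 dim members highest on the high-fat diet alone, Gpnmb, Mmp12 and Itgax. They come from RefSeq on GRCm38.p6 and run from 250 bases before a gene's start to 50 after it, in the direction of the gene. Such windows were at hand for 6 of the 8 measured members, 7 windows in all because Mmp12 has 2 starts, and Lpl and Atp6v0d2 had no entry. Capitals mark matches, on either strand, to TGAGTCA, the letters bound by AP-1 (activator protein 1, a factor active in stimulated macrophages). The windows are Cd9 at chr6:125494711-125495010 on the minus strand, Gpnmb at chr6:49036268-49036567, the second start of Mmp12 at chr9:7347124-7347423 and Itgax at chr7:128129300-128129599, the last 3 on the plus strand.
Cd9: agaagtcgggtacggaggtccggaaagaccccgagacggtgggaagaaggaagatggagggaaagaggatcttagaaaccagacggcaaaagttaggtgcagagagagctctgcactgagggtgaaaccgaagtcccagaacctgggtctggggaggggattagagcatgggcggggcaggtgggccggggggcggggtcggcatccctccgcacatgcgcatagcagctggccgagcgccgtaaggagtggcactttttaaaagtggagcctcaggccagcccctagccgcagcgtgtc
Gpnmb: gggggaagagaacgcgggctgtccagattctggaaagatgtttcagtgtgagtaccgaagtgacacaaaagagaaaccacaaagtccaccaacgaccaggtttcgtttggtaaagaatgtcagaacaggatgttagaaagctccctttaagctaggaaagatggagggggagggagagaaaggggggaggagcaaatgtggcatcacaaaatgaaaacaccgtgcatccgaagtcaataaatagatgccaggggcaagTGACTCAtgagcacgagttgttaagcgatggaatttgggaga
Mmp12: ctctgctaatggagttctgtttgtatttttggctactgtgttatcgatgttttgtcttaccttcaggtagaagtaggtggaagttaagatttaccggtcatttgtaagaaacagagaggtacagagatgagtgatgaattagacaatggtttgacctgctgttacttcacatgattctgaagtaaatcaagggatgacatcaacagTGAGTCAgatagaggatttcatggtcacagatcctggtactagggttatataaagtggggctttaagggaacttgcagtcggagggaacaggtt
Itgax: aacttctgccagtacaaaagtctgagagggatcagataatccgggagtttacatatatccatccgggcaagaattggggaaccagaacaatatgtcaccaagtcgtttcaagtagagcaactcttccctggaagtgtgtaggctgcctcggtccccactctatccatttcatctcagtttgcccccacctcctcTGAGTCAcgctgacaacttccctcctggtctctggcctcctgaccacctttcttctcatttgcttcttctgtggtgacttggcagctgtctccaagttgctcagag
The match lies 8 bases after the start in Gpnmb, where it reads TGACTCA because it is on the other strand, 44 bases before the start in Mmp12 and 56 before it in Itgax. TGAGTCA was in 3 of the 7 windows of measured members and in 5.19% of all 32544 windows of this length. GAGGAAGT, a form of the letters bound by the macrophage factor PU.1, was in 1 of the 7, the first start of Mmp12, and in 3.11% of all windows. CACGTG, the core of the sites that lysosomal gene regulators bind, was in 0 of the 7 and in 7.17% of all windows. A match describes letters in a window and was not tied to any factor by these arrays. The search was independent of the array values, but the choice of which windows to print was not. Of the 2 Mmp12 windows only the second, which holds a TGAGTCA match, was printed, and the first holds none.

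Trem2, the lipid-sensing receptor that defines the state, was read at 5.04, 5.04 and 5.28 on the regular diet, at 5.14, 5.29 and 5.13 on the high-fat diet and at 4.92, 5.13 and 5.13 with extract. The groups overlapped in every pair. The high-fat diet mean differed from the regular-diet mean by 0.06 ± 0.10 (log2 difference ± standard error, n = 3 arrays each, limma adjusted p over all genes = 0.835), with a 95% interval of -0.15 to 0.28. With extract the difference from the high-fat diet was -0.13 ± 0.10 (adjusted p = 0.876), with an interval of -0.34 to 0.09. As single arrays were dropped, the diet difference ran from 0.01 without high-fat diet replicate 2 to 0.14 without regular-diet replicate 3, and that of extract from the high-fat diet from -0.16 to -0.06, the latter without extract replicate 1. Those intervals bound the change that these arrays allow and do not show that the levels were equal.

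Gpnmb encodes a transmembrane glycoprotein of lysosomes and the cell surface that rises in phagocytes under lysosomal load. Its values were 4.09, 4.47 and 4.54 on the regular diet, 4.73, 4.97 and 5.23 on the high-fat diet and 4.47, 3.91 and 4.13 with extract. Each high-fat diet array lay above every array of the other groups, and 2 regular-diet arrays and 1 extract array were above background. The diet difference was 0.61 ± 0.18 (limma adjusted p = 0.162). For extract against the high-fat diet it was -0.80 ± 0.18, which was lower in 3 of 3 arrays but did not pass (adjusted p = 0.477). That ranks 66th of the 22180 genes by p in the extract comparison, where 1 gene passed.

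Mmp12 encodes macrophage elastase, a metalloproteinase that cuts elastin and other matrix proteins. It was read at 3.77, 3.37 and 4.46 on the regular diet, at 4.35, 5.10 and 4.73 on the high-fat diet and at 3.95, 4.10 and 4.02 with extract. The high-fat diet arrays overlapped with regular-diet replicate 3 and lay above all 3 extract arrays, none of which was above background. The difference from the regular diet was 0.86 ± 0.26 (limma adjusted p = 0.172). Dropping regular-diet replicate 3 raised it to 1.16 and dropping replicate 2 lowered it to 0.61 (adjusted p = 0.0640 and 0.394). With extract it stood at -0.70 ± 0.26 from the high-fat diet (adjusted p = 0.785).

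Itgax encodes CD11c, an integrin chain of dendritic cells and of lipid-associated macrophages. Its values were 3.87, 3.66 and 3.77 on the regular diet, 4.51, 4.39 and 3.99 on the high-fat diet and 3.93, 4.01 and 3.99 with extract. All high-fat diet arrays exceeded all regular-diet arrays, but only high-fat diet replicate 1 was above background, so the gene is at the edge of detection here. The diet difference was 0.53 ± 0.13 (limma adjusted p = 0.0884) and passed when high-fat diet replicate 3 was left out (0.68, adjusted p = 0.0386). Extract stood at -0.32 ± 0.13 from the high-fat diet (adjusted p = 0.802).

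Atp6v0d2 encodes a subunit of the proton pump that acidifies lysosomes, a form found in macrophages and osteoclasts. It was read at 3.79, 3.74 and 4.33 on the regular diet, at 4.12, 5.61 and 4.92 on the high-fat diet and at 5.90, 5.73 and 5.44 with extract. No regular-diet array was above background, 2 high-fat diet arrays were, and all 3 extract arrays were and lay above the regular-diet arrays. Against the regular diet the difference was 0.93 ± 0.33 on the high-fat diet (limma adjusted p = 0.247) and 1.74 ± 0.33, or 3.34-fold, with extract (adjusted p = 0.0696), neither past the threshold. Dropping high-fat diet replicate 1 raised the first of these to 1.32 and dropping replicate 2 lowered it to 0.57 (adjusted p = 0.0713 and 0.474). Since the regular-diet arrays lie at background, the sizes of these differences depend on where background lies. The difference of extract from the regular diet stayed at 1.74 and passed when either of 2 high-fat diet arrays was dropped (adjusted p = 0.0386 for replicate 1 and 0.0376 for replicate 2), although these arrays enter that comparison only through the shared estimate of spread. Leaving out extract replicate 1 gave 1.63 (adjusted p = 0.242). Against the high-fat diet alone, extract stood at 0.81 ± 0.33 (adjusted p = 0.802), with 0.42 without high-fat diet replicate 1 and 1.17 without high-fat diet replicate 2.

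**Figure D1:**
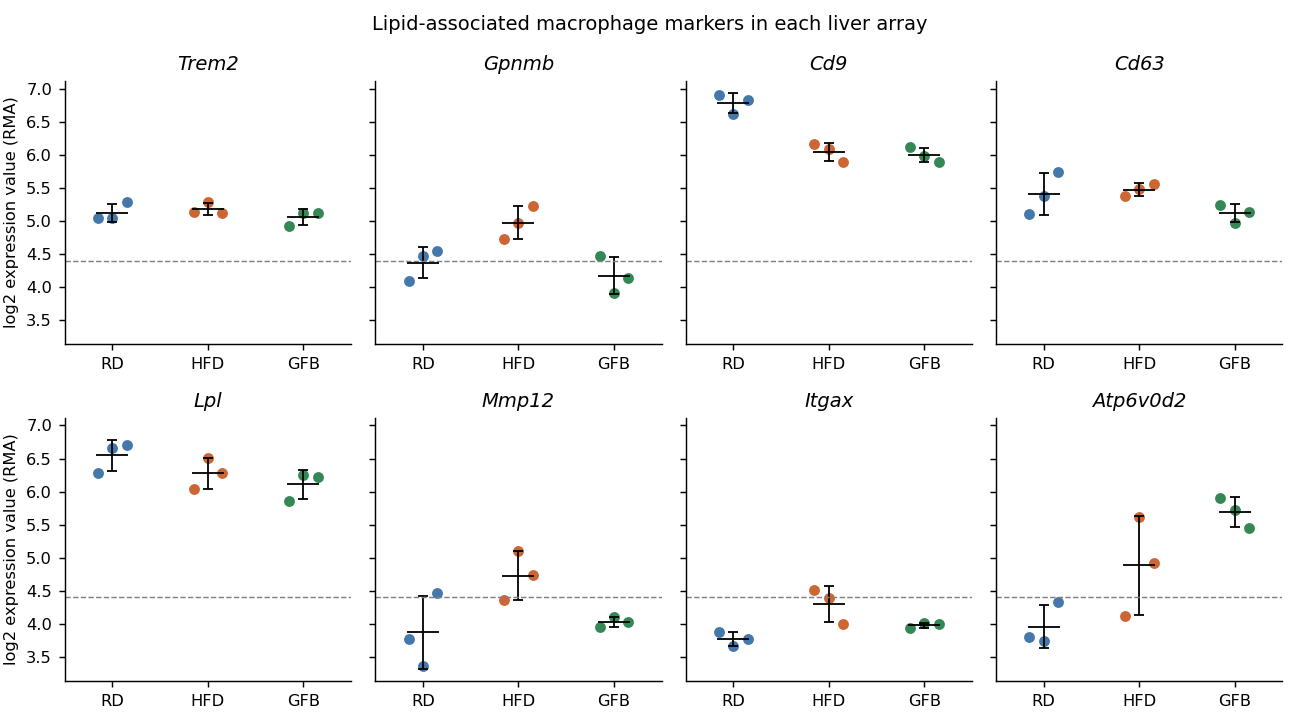
Log2 expression values (RMA) of the 8 measured markers in 9 liver arrays, 3 each for the regular diet (RD), the high-fat diet (HFD) and the high-fat diet with extract (GFB). Points are arrays in replicate order, black marks are group means with SD, and the dashed line is the background level of 4.40. Cd9 sits between 6.62 and 6.91 on the regular diet and between 5.89 and 6.16 in the other 6 arrays, whereas Atp6v0d2 lies above the line in all 3 extract arrays.

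Cd9 encodes a tetraspanin, a small membrane protein that gathers integrins and other receptors into patches on the cell surface and marks extracellular vesicles. Its values were 6.91, 6.62 and 6.83 on the regular diet, 6.16, 6.09 and 5.90 on the high-fat diet and 6.11, 5.99 and 5.89 with extract. All 6 arrays of high-fat-fed mice lay below all 3 regular-diet arrays, and the 2 high-fat groups overlapped. Cd9 fell by 0.74 on the log2 scale on the high-fat diet (-0.74 ± 0.10, 1.67-fold lower, limma adjusted p = 0.0145), the opposite direction to its role as a marker of the state. Extract with the high-fat diet also stood below the regular diet (-0.79 ± 0.10, 1.73-fold lower, adjusted p = 0.0206), a comparison that shares the regular-diet arrays with the first. Extract and high-fat diet differed by -0.05 ± 0.10 (adjusted p = 0.958), with an interval of -0.29 to 0.18. A further Cd9 probe set was under background in every array, at 3.59 to 3.97, and its mean differed by -0.08 on the high-fat diet and by 0.14 with extract, each against the regular diet. With the mean of both probe sets in place of the brighter one, the diet difference was -0.41 (adjusted p = 0.0371) and that of extract against the regular diet was -0.33 (adjusted p = 0.127).

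The Cd9 calls rested on few arrays. For the diet comparison, the call was lost when replicate 3 of either group was dropped, at -0.72 for the regular-diet array (limma adjusted p = 0.0572) and -0.66 for the high-fat diet array (adjusted p = 0.0619). It was lost as well when only the 6 arrays compared were fitted (adjusted p = 0.0780). For extract against the regular diet it was lost without regular-diet replicate 3 (-0.77, adjusted p = 0.0876). It was also lost without extract replicate 1, 2 or 3 (-0.85, -0.78 and -0.74, with adjusted p = 0.0779, 0.119 and 0.0592), and in the fit of 6 arrays (adjusted p = 0.0728). The direction held in each of these fits, with differences from -0.87 to -0.66 when single arrays were left out.

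**Figure D2:**
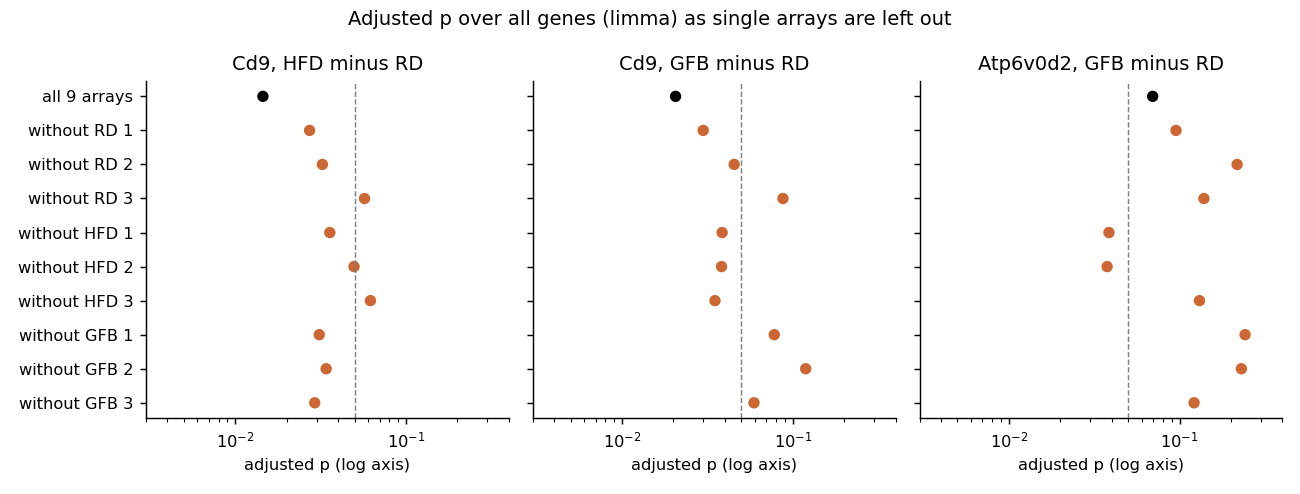
Adjusted p over all genes from limma (log axis) for Cd9 in both comparisons with the regular diet and for Atp6v0d2 with extract against the regular diet, with all 9 arrays (black) and with each array left out (orange). The dashed line is 0.05. The points cross the line in all 3 panels, between 0.0145 and 0.0619 for Cd9 on the high-fat diet and between 0.0376 and 0.242 for Atp6v0d2.

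Cd63, a tetraspanin of late endosomes and lysosomes, was read at 5.11, 5.37 and 5.75 on the regular diet, at 5.37, 5.48 and 5.56 on the high-fat diet and at 5.24, 4.97 and 5.14 with extract. The extract arrays all lay below the high-fat diet arrays, while the regular-diet arrays overlapped with both groups. Its differences were 0.06 ± 0.15 in the diet comparison (limma adjusted p = 0.905) and -0.36 ± 0.15 with extract against the high-fat diet (adjusted p = 0.804).

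Lpl encodes lipoprotein lipase, which frees fatty acids from circulating triglyceride. Its values were 6.28, 6.66 and 6.71 on the regular diet, 6.04, 6.51 and 6.28 on the high-fat diet and 5.86, 6.25 and 6.22 with extract. Neighbouring groups overlapped, and only the extract arrays stood clear of the regular-diet arrays. The difference of the high-fat diet from the regular diet was -0.28 ± 0.16 (limma adjusted p = 0.521) and that of extract from the regular diet was -0.44 ± 0.16 (adjusted p = 0.316). As single arrays were dropped, the diet difference ran from -0.41 to -0.16, the latter without high-fat diet replicate 1.

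Counted together, 1 of the 8 measured markers passed in the diet comparison and it fell, where 0.518% of all genes fell, 0.821% rose and 1.34% passed in either direction. Unadjusted p was under 0.05 for 5 of the 8, where 13.3% of all genes had such a p. By direction alone, 6 of the 8 were higher, and the median difference was 0.30 against 0.00 over all genes. Groups did not overlap for 3 of the 8 (Gpnmb and Itgax higher, Cd9 lower), where 15.8% of all genes had groups apart, 7.93% higher and 7.86% lower. For extract against the high-fat diet, limma called 0 of the 8 where 0.00451% of all genes passed, and 5 of the 8 had an unadjusted p under 0.05, where 5.98% of all genes did. These 5 were Gpnmb, Mmp12, Itgax and Cd63, lower with extract, and Atp6v0d2, higher. In that comparison 7 of the 8 were lower with a median of -0.24, against -0.00 over all genes. Gpnmb, Cd63 and Mmp12 had groups apart, all lower, where 9.69% of all genes had groups apart, 4.42% higher and 5.27% lower. For extract against the regular diet, 1 of the 8 passed and fell (Cd9), where 0.180% of all genes fell, 0.261% rose and 0.442% passed. Unadjusted p was under 0.05 for 3 of the 8, where 12.1% of all genes had such a p. There 3 were higher and 5 lower with a median of -0.13, and groups were apart for 4 of the 8 (Itgax and Atp6v0d2 higher, Cd9 and Lpl lower), where 14.6% of all genes had groups apart, 7.00% higher and 7.62% lower. The first and second comparisons share the high-fat diet arrays, so a high or low value there moves both in opposite directions.

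**Figure D3:**
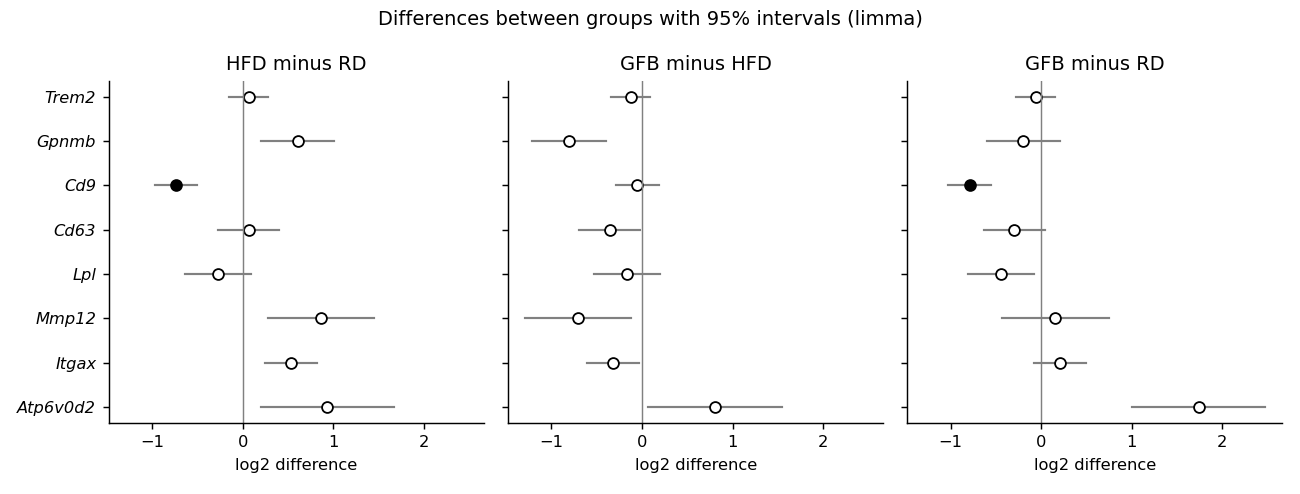
Log2 differences of the 8 markers between groups (points) with 95% intervals (lines) from limma, in 3 panels for the high-fat diet minus the regular diet, extract minus the high-fat diet and extract minus the regular diet, with 3 arrays per group. Filled points passed an adjusted p of 0.05 over all genes. Only Cd9 is filled, at -0.74 and -0.79, and the interval of Atp6v0d2 reaches from 1.00 to 2.48 in the last panel.

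Some arrays stood high or low for several markers at once. Regular-diet replicate 3 was the highest of its group for 6 of the 8 markers, Trem2, Gpnmb, Cd63, Lpl, Mmp12 and Atp6v0d2. High-fat diet replicate 1 was the lowest of its group for 5 of the 8 and replicate 2 the highest for 4. General macrophage genes also differed within groups: the mean log2 level of 14 measured pan-macrophage genes ran from 6.13 to 6.50 on the regular diet, from 6.26 to 6.53 on the high-fat diet and from 6.13 to 6.47 with extract. Those ranges overlap almost fully, and all 14 genes were above background in at least 1 array. For the 11 Kupffer cell genes the ranges were 6.22 to 6.58, 6.24 to 6.43 and 6.21 to 6.59, with 1 gene never above background. The 9 measured genes of recruited monocytes and macrophages ran from 4.66 to 4.80, from 4.88 to 5.06 and from 4.65 to 4.76. The high-fat diet arrays were thus highest for the recruited list, but 5 of its 9 genes, among them the monocyte receptor gene Ccr2, were never above background. In the diet comparison 7 of the 9 were higher and 2 lower. The largest difference, 0.89, was that of Chil3, also never above background, and Ly6c2 was above background in 3 of the 9 arrays. Plac8, Cx3cr1 and F10 were above background in all 9 arrays. Plac8 was read at 5.01, 5.03 and 5.04 on the regular diet and at 5.35, 5.53 and 5.22 on the high-fat diet. With extract it was at 4.92, 5.07 and 5.09, so its high-fat diet arrays lay above all others. No gene of these 3 lists passed in any comparison with limma. Unadjusted p was under 0.05 on the high-fat diet for 1 of 14, 1 of 11 and 3 of 9 genes. Over all genes, 13.3% had such a p. With extract against the high-fat diet these counts were 1 of 14, 0 of 11 and 3 of 9, where 5.98% of all genes had such a p. The 3 of the recruited list were all lower. Its groups were apart in that comparison for 3 genes, all lower, where 5.27% of all genes were apart and lower. What part macrophage number had in the marker values was not tested.

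Of the 28 measured genes of a wider lipid-associated macrophage list, 21 were higher on the high-fat diet than on the regular diet. The list median was 0.19 against 0.00 over all genes, and 1 passed with limma, where 1.34% of all genes did. Unadjusted p was under 0.05 for 11 of the 28, 10 of them higher, where 13.3% of all genes had such a p. Groups were apart for 13, 12 of them higher, where 15.8% of all genes had groups apart. Whole liver RNA was measured, and which cells gave the differences of this list, here or with extract, was not tested. The gene that passed was Lgals1, which encodes the sugar-binding protein galectin 1 and is also made by fibroblasts and other cells. It was read at 6.49, 6.88 and 6.52 on the regular diet, at 8.32, 9.01 and 9.24 on the high-fat diet and at 7.45, 6.72 and 7.48 with extract. Lgals1 rose 4.69-fold (2.23 ± 0.27, limma adjusted p = 0.0102), and the call was lost only in the fit of 6 arrays (adjusted p = 0.0525). Extract stood 1.64 lower than the high-fat diet, which did not pass (-1.64 ± 0.27, adjusted p = 0.242), although its arrays lay below all high-fat diet arrays. Cd36, a fatty acid uptake receptor, stood at 1.27 ± 0.26 on the high-fat diet (adjusted p = 0.0539) and Csf1, the macrophage growth factor gene, at 0.46 ± 0.12 (adjusted p = 0.116).

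With extract against the high-fat diet, 23 of these 28 genes were lower with a median of -0.18, none passed with limma, and 11 had an unadjusted p under 0.05, where 5.98% of all genes did. Anxa2, which encodes a membrane-binding annexin, stood at -0.85 ± 0.17 (limma adjusted p = 0.325), with arrays at 6.08, 6.14 and 6.44 on the high-fat diet and 5.54, 5.10 and 5.48 with extract. Plin2, the lipid droplet coat gene, stood at -0.55 ± 0.14 (adjusted p = 0.574) and Lgals3, which encodes galectin 3 of macrophages and other cells, at -0.39 ± 0.10 (adjusted p = 0.581). The mean level of the list ran from 7.04 to 7.26 on the regular diet, from 7.35 to 7.46 on the high-fat diet and from 7.10 to 7.16 with extract. For extract against the regular diet 15 of the 28 were higher and 13 lower, with a median of 0.01, and none passed. Unadjusted p was under 0.05 for 5 of the 28, where 12.1% of all genes had such a p.

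None of 12 measured genes of the TREM2 complex and signalling passed in the 3 limma comparisons, with medians of 0.01, -0.02 and -0.00. Unadjusted p was under 0.05 for 0, 1 and 0 of them, where 13.3%, 5.98% and 12.1% of all genes had such a p. Tyrobp, the adaptor of TREM2, was read between 5.73 and 6.42 over the 9 arrays. Plcg2, the phospholipase below it, stood at -0.22 ± 0.08 with extract against the high-fat diet (adjusted p = 0.785). Of 6 genes for TREM2 ligands, 5 stood higher in the diet comparison and 5 lower with extract against the high-fat diet. None passed with limma, and 2 in each comparison had an unadjusted p under 0.05, where 13.3% and 5.98% of all genes did. Anxa5, which binds exposed phosphatidylserine, stood at 0.31 ± 0.20 and -0.69 ± 0.20 in these comparisons (adjusted p = 0.568 and 0.693), and Apoe, an apolipoprotein gene of macrophages and hepatocytes, at 0.14 ± 0.11 and -0.19 ± 0.11. The other 5 TREM family genes did not pass in any comparison, and 3 of them were never above background.

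Among 20 measured relatives and partners of the tetraspanins Cd9 and Cd63, 1 rose on the high-fat diet and none fell, with a median of 0.02. Over all genes 0.821% rose and 0.518% fell. Unadjusted p was under 0.05 for 4 of the 20, where 13.3% of all genes had such a p. The gene that rose was Cd81, a close relative of Cd9 and likewise a vesicle marker, which moved the opposite way to it. Its arrays were at 11.43, 11.34 and 11.54 on the regular diet, at 12.11, 12.24 and 12.25 on the high-fat diet and at 11.89, 11.80 and 11.83 with extract, with no overlap between any of the groups. Cd81 rose 1.69-fold (0.76 ± 0.08, limma adjusted p = 0.00580) and its call was lost only in the fit of 6 arrays (adjusted p = 0.0525). Extract stood at -0.36 ± 0.08 against the high-fat diet (adjusted p = 0.427) and at 0.40 ± 0.08 against the regular diet (adjusted p = 0.0778). Cd151, which binds laminin-receptor integrins, stood at 0.16 ± 0.06 on the high-fat diet (adjusted p = 0.313).

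For the lysosome, 1 of 13 measured genes of its regulators and membrane changed on the high-fat diet, where 1.34% of all genes did. Unadjusted p was under 0.05 for 4 of the 13, 2 higher and 2 lower, where 13.3% of all genes had such a p. Scarb2, which encodes the lysosomal membrane protein LIMP-2, fell (-0.37 ± 0.07, limma adjusted p = 0.0399), with arrays at 9.62, 9.60 and 9.51 on the regular diet and 9.22, 9.15 and 9.25 on the high-fat diet. That call was lost in each of the 9 fits that left out 1 array, where the difference ran from -0.41 to -0.34. It was also lost with a replicate-number block, renewed quantile normalization, a fold of at least 1.5 and the fit of 6 arrays. Hexa, a lysosomal hexosaminidase subunit gene, stood at 0.42 ± 0.09 (adjusted p = 0.0649). The 19 measured subunits of the proton pump other than Atp6v0d2 had medians of 0.02, -0.06 and -0.00 in the 3 comparisons. None passed with limma, and 3, 2 and 2 had an unadjusted p under 0.05, where 13.3%, 5.98% and 12.1% of all genes did. Atp6v0d1, the widely expressed counterpart of Atp6v0d2, was read between 8.58 and 8.73 in all 9 arrays.

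Among 12 measured partners and relatives of Lpl, none passed on the high-fat diet and 1 fell with extract against the regular diet. Over all genes 1.34% passed in the first comparison and 0.180% fell in the second. Unadjusted p was under 0.05 for 5 and 6 of the 12, where 13.3% and 12.1% of all genes had such a p. Apoc2 encodes the cofactor that lipoprotein lipase needs, and it was read at 10.15, 10.16 and 10.16 on the regular diet, at 9.94, 10.08 and 9.91 on the high-fat diet and at 9.53, 9.60 and 9.55 with extract. It fell by 0.60 against the regular diet (-0.60 ± 0.07, limma adjusted p = 0.0140), with no overlap between any of the groups. The call was lost without regular-diet replicates 2 or 3 and without extract replicates 1 or 2 (adjusted p up to 0.0826). Against the high-fat diet extract stood at -0.42 ± 0.07 (adjusted p = 0.292). Lmf1, which encodes a factor that folds the lipase, stood at 0.51 ± 0.11 on the high-fat diet (adjusted p = 0.0715).

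The families of the remaining markers gave no calls. Of 16 other matrix metalloproteinases and their inhibitors, 6 were never above background, and none passed. Mmp19 was nearest on the high-fat diet (0.41 ± 0.09, limma adjusted p = 0.0699), and Mmp13, at 0.64 ± 0.19, was under background in all 9 arrays. None of the 8 genes around the leukocyte integrins passed: Itgb2, the chain that pairs with Itgax, stood at 0.15 ± 0.09 on the high-fat diet and -0.21 ± 0.09 with extract (adjusted p = 0.506 and 0.804). None of the 10 osteopontin receptor genes passed, and Cd44 was above background in 6 of the 9 arrays.

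**Figure D4:**
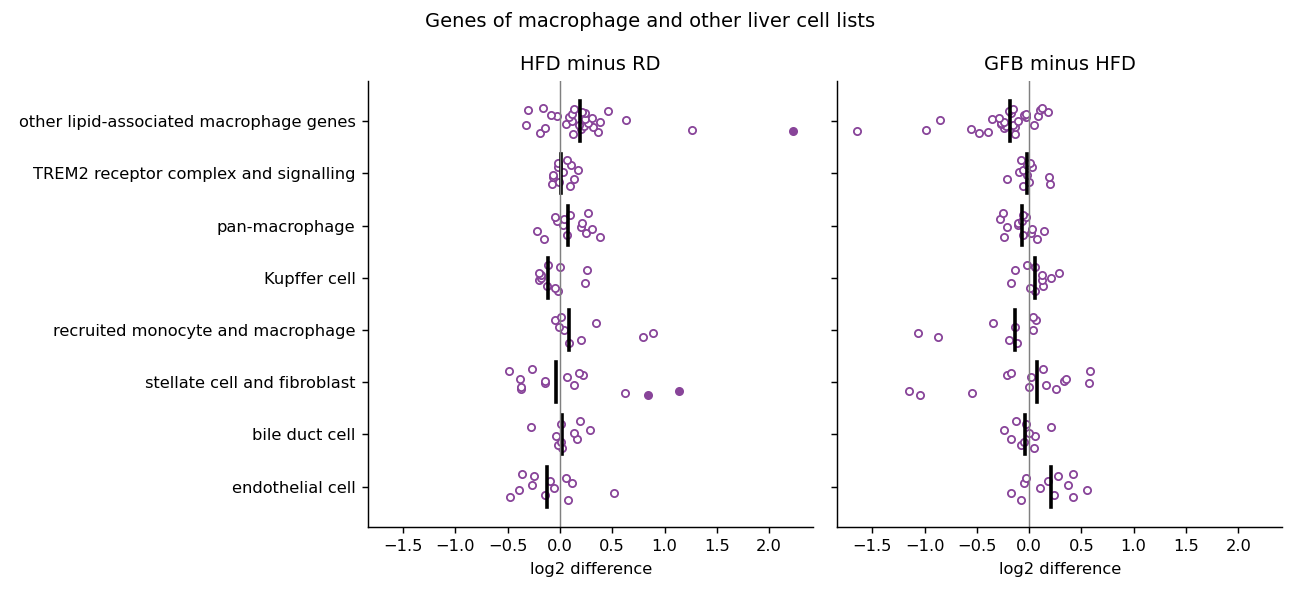
Log2 differences of single genes (points) in 8 lists of macrophage, TREM2 and other liver cell genes, for the high-fat diet minus the regular diet and for extract minus the high-fat diet, which share the high-fat diet arrays. Black bars are list medians and filled points passed an adjusted p of 0.05 over all genes. The filled points are Lgals1 at 2.23, Col3a1 at 1.14 and Col1a1 at 0.85, all on the high-fat diet.

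Several markers are also made by other liver cells, whose genes were read beside them. Of 14 stellate cell and fibroblast genes, 2 collagen genes rose on the high-fat diet, where 0.821% of all genes rose. They were Col1a1 (0.85 ± 0.12, limma adjusted p = 0.0152) and Col3a1 (1.14 ± 0.14, adjusted p = 0.0115), and the list median was -0.04. Unadjusted p was under 0.05 for 6 of the 14, 3 higher and 3 lower, where 13.3% of all genes had such a p. The Col1a1 call was lost in the fit of 6 arrays and without regular-diet replicates 2 or 3 or high-fat diet replicates 2 or 3 (adjusted p up to 0.0877), and that of Col3a1 in the fit of 6 arrays and without regular-diet replicate 2 (adjusted p up to 0.0749). With extract against the high-fat diet none of the 14 passed. Unadjusted p was under 0.05 for 8, 5 higher and 3 lower, where 5.98% of all genes had such a p. There Col1a1 stood at -1.05 and Col3a1 at -1.15, with all extract arrays below all high-fat diet arrays for both. The mean level of the stellate and fibroblast list ran from 6.33 to 6.48 on the regular diet, from 6.44 to 6.50 on the high-fat diet and from 6.36 to 6.45 with extract. For 10 bile duct genes the levels ran from 4.20 to 4.20, from 4.21 to 4.27 and from 4.17 to 4.24, and none passed. Of these, 5 were never above background, Krt19 and Epcam among them, while Krt7, Sox9 and Pkhd1 were above it in all 9 arrays. Groups were apart for 3 of the 10 in the diet comparison, all higher, where 7.93% of all genes were apart and higher. With extract against the high-fat diet 2 were apart, both lower, where 5.27% of all genes were. For 12 endothelial genes the levels ran from 6.75 to 6.93, from 6.57 to 6.83 and from 6.76 to 7.00. Their median difference on the high-fat diet was -0.12, and none passed. For 11 hepatocyte genes, all above background, the levels ran from 11.63 to 11.70, from 11.50 to 11.59 and from 11.60 to 11.69. Of these 11, 7 stood higher and 4 lower in the diet comparison, with a median of 0.01. Unadjusted p was under 0.05 for 4, all lower, where 13.3% of all genes had such a p. Groups were apart for 6, 2 higher and 4 lower, where 15.8% of all genes had groups apart. Only 1 passed, where 0.518% of all genes fell: Cps1, a urea cycle enzyme gene, fell (-0.66 ± 0.10, limma adjusted p = 0.0224). The Cps1 call was lost in the fit of 6 arrays, without regular-diet replicates 2 or 3 and without any 1 of the high-fat diet arrays (adjusted p up to 0.105). Of the dendritic cell genes, which bear on Itgax, none of 9 passed, with a median of 0.17 on the high-fat diet, and 2 (Flt3 among them) were never above background. None of 10 neutrophil, 11 lymphocyte and 7 white adipose tissue genes passed with limma in any comparison. Of them, 8, 7 and 2 were never above background. In the diet comparison 0, 1 and 3 had an unadjusted p under 0.05, where 13.3% of all genes did. The part of any of these cells in the marker values was not tested.

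The genes whose profiles over the 9 arrays lay closest to 3 of the markers were taken from 11647 genes above background, with distance as the root mean square difference of profiles centred on their own means. Closest to Gpnmb was Anxa2 at 0.14 log2 units, where Gpnmb itself varied by 0.40 about its mean, followed by Pex11a (0.18), Robo1, Pnldc1 (0.20 each) and Col1a1 (0.22). Closest to Cd9, which varied by 0.38, were Armcx3 (0.16), Kctd2, Plin5, Ppa1 (0.17 each) and Mapkapk2 (0.18). Plin5 encodes a lipid droplet coat protein, and it stood at -0.98 on the high-fat diet. Closest to Trem2, which varied by only 0.11, were Pphln1 (0.03), Txndc17, Polr2e (0.04 each), Olfml3 and Mfge8 (0.05 each). Mfge8 encodes a bridge protein by which phagocytes bind dying cells. Likeness over 9 arrays is a description and carries no test.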

How the data were processed

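The values came from 9 liver arrays in 3 groups of 3. The deposited values are on the log2 scale. Per the submitters' processing notes, the authors used oligo and RMA (robust multi-array averaging), with versions and genome build not given in the sources used here. RMA subtracts background, quantile-normalizes arrays and summarises probe sets, so a shift shared by most genes would be removed and dim probe sets keep values near background. Array medians ran from 4.34 to 4.38.

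Of 41345 probe sets, 23521 had 1 symbol in the array's annotation table, 1814 several and 16010 none. The brightest stood for a gene, leaving 22180 genes. Of these, 21994 symbols matched RefSeq by gene identifier. limma 3.58.1 in R 4.3.3 was fitted with group means to all 9 arrays (6 residual and 3.28 prior degrees of freedom), two-sided. Genes counted as changed had an adjusted p under 0.05, with the Benjamini-Hochberg method run across the 22180. No p was adjusted over a list. An exact permutation test of 3 against 3 arrays cannot go below p = 0.1.

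On simulated data (high-fat against regular diet, 22180 genes), 41.6% of log2 changes of 0.5 were recovered, 84.8% at 1 and 98.4% at 2. The changes were put into randomly drawn genes of the high-fat diet arrays, with independent normal noise of each gene's own spread. Recovery was not simulated for the extract comparisons or for single markers. The members and lists (24, with 271 of 297 symbols measured) were chosen with earlier results of these data known. The text names the 9 members, list genes that passed, up to 3 list genes of smallest p per comparison and the 5 genes most like Trem2, Gpnmb and Cd9. Other list genes (Tyrobp, Lgals3, Atp6v0d1, Cd44, Tgm2, Clu, Ccr2, Chil3, Ly6c2, Plac8, Cx3cr1, F10, Krt19, Epcam, Krt7, Sox9, Pkhd1) were chosen after their values were seen. A planned search of protein sequences was not run.

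Alternatives were a variance trend with robust fitting, 2 filters on dim genes, probe sets averaged per gene, renewed quantile normalization, median centring, a block for the replicate number, weighting of arrays, a relaxed threshold (0.10), a fold of at least 1.5, a fit of 6 arrays only, and dropping single arrays. Deviations of same-numbered arrays from their group means correlated at -0.05 to 0.17, so the numbers were not taken as pairs.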

Additional observations from a re-analysis of the deposited data

How the results depend on the processing

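Among the 8 markers, 441 of 465 alternative values kept direction and side of the threshold, 9 lost the call, 9 gained it and 6 changed sign, all 6 without passing. The sign changes were Cd63 on the high-fat diet (-0.086 without regular-diet replicate 1), Cd9 with extract against the high-fat diet (0.083 with the mean of probe sets, 0.0047 without high-fat diet replicate 1), Mmp12 with extract against the regular diet (-0.092 without regular-diet replicate 2) and Trem2 in that comparison (0.017 without regular-diet replicate 3, 0.0054 without extract replicate 1). As arrays were left out these differences ran from -0.086 to 0.232 for Cd63, from -0.128 to 0.0047 for Cd9, from -0.092 to 0.455 for Mmp12 and from -0.102 to 0.017 for Trem2. The cause was not tested. Mmp12 and Itgax were too dim for both filters and Gpnmb for the filter at the median, so they have no value there.

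Markers changed on the high-fat diet numbered 2 instead of 1 at an adjusted p under 0.10 (with Itgax) and 0 in the fit of 6 arrays, and 0 to 1 as arrays were left out. Without high-fat diet replicate 3 the 1 called was Itgax, not Cd9. Against the regular diet, extract gave 2 instead of 1 with the variance trend, either filter or the threshold of 0.10 (Cd9 and Atp6v0d2) and 0 with the mean of probe sets. It gave 0 to 2 as arrays were left out, and in the fit of 6 arrays the 1 called was Atp6v0d2. Both filters kept genes by their mean over all arrays, which was 4.84 for Atp6v0d2 against levels of 4.40 and 4.74. Its regular-diet mean of 3.95 lay under both levels, so it was kept through its high-fat diet and extract values (means 4.88 and 5.69). The filter calls of Atp6v0d2 thus come from a selection that used the groups compared and do not count as separate evidence. Against the high-fat diet, extract gave 0 in all 20 alternatives.

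Over all genes, the high-fat diet count of 297 became 597 above the median brightness, 565 above the receptor background, 611 at 0.10, 171 with a fold of 1.5, 15 in the fit of 6 arrays and 58 to 452 as arrays were left out. The count of 98 for extract against the regular diet became 232, 206, 216 and 34 in the filters, at 0.10 and in the fit of 6 arrays, and 2 to 267 as arrays were left out. The count of 1 against the high-fat diet became 4 with either filter or at 0.10, 3 with array weights, 0 with median centring or in the fit of 6 arrays and 0 to 3 as arrays were left out. With the replicate number as a block, 201, 1 and 68 genes were called in the order high-fat diet against regular diet, extract against high-fat diet and extract against regular diet. No marker call changed with that block (Cd9 adjusted p = 0.0254 and 0.0258), and 3 of 9 arrays correlated best with their own number. Alternatives for the list genes were added after seeing the data. The nearness of Mmp12, Itgax, Gpnmb and Atp6v0d2 to background limits what these arrays show of them.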

Other observations

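Equal values in different arrays were common in the deposited data. Of 22180 genes, 12621 (56.9%) had a value shared by at least 2 of the 9 arrays to all digits given, and 4 of the 8 markers did: Trem2 (7 distinct values), Cd63, Lpl and Itgax (8 each). For Trem2, high-fat diet replicate 3 and extract replicates 2 and 3 shared 1 value.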
